A study of Mus musculus with 2 samples.

Results

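The genes described here are 10 MHC class II genes of the mouse, taken as every non-control spot whose gene name on the array is H2-Aa, H2-Ab1, H2-Eb1, Cd74, H2-DMa, H2-DMb1, H2-Oa, H2-Ob, Ciita (printed on the array under its older name C2ta) or Rfx5. They have 16 probes and 25 spots, out of 41174 probes and 43379 non-control spots for 28786 genes or transcripts. Their transcripts were measured in 2 tumours, called tumour 1 and tumour 2, names that carry no order. Each tumour came from RMS3 cells, labelled as a PRMS cell line, an abbreviation that no label explains. Both were started in male C57BL/6J mice by a subcutaneous injection of 1000000 RMS3 cells in 200 µl and were taken 2 weeks later, although 1 protocol sentence calls the harvested tumours metastatic. The labels give no allele, transgene, age or further treatment for cells or mice, and RMS3 is a single cell line, so both tumours share their cells of origin. There is no cultured line, normal tissue or uninjected control, so the comparison is between 2 tumours of 1 group, 1 on each side. It has no replicate check and no p-value.

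MHC class II molecules display peptides from endocytosed protein to CD4+ T cells. An alpha and a beta chain pair in the endoplasmic reticulum around the invariant chain, which guides them to the endosome, where it is cut away and H2-DM exchanges its last fragment for peptide, under the restraint of H2-O. Dendritic cells and B cells make these molecules constantly, and macrophages do so to a varying degree. Interferon gamma can bring class II out on many other cells by inducing Ciita, the coactivator without which the genes are barely transcribed. C57BL/6 mice make I-A from H2-Aa and H2-Ab1 but carry a defective H2-Ea gene, so that the product of H2-Eb1 has no alpha chain to form I-E with.

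Ciita does not touch DNA itself. It is recruited by proteins on an X box, bound by the RFX complex of which Rfx5 is a subunit, and a Y box, bound by NF-Y, which stand at a nearly fixed distance in class II promoters. Promoter windows of RefSeq (build GRCm38.p6, from 250 bases before the start of a gene to 50 after it) were at hand for 7 of the 10 genes, all but H2-Ab1, Cd74 and Ciita. In 5 of these 7, those of H2-Aa, H2-Eb1, H2-DMb1, H2-Oa and H2-Ob, the letters GNAAC of the X box were followed on the same strand, after 24 to 27 bases, by the Y box letters GATTGG. They are printed 5′ to 3′ to show the element that these genes share, with those letters in capitals, from chr17:34287859-34287916 (minus strand), chr17:34305764-34305820, chr17:34153085-34153142, chr17:34092291-34092348 and chr17:34238806-34238860 (all plus strand) in the same order.
H2-Aa: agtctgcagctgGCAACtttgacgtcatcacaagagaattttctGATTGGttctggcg
H2-Eb1: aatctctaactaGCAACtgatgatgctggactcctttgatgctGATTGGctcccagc
H2-DMb1: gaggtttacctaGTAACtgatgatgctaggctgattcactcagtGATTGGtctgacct
H2-Oa: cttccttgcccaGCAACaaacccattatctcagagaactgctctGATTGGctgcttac
H2-Ob: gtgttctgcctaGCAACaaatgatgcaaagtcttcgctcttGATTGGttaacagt

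The Y box began at base -49 of H2-Aa, -60 of H2-Eb1, -62 of H2-DMb1, -44 of H2-Oa and -58 of H2-Ob, where -1 is the last base before the start. Of all 32851 windows in the table, 77 (0.234%) held such a pair on either strand, but the pair and its spacing were chosen after these windows had been read, so that share is only a description. Singly such short texts are common. A longer X box text, AGNAACNG, stood in 17.4% of all windows and GATTGG in 16.1%, each counted on both strands. Of the X box letters printed above, only those of H2-Eb1 and H2-DMb1 lie within a match to the longer text. The share of windows with GNAAC alone was not counted. The letters TTCNNNGAA, an interferon gamma activated site, occurred in 8.3% of windows and in none of the members' windows, which says only that these letters are not there. Matches of this kind are text matches and not binding sites.

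A level below is log2 of the processed signal minus the 75th percentile of the array, which was a signal of 1000 on the array of tumour 1 and 902 on that of tumour 2. Levels can be compared between the tumours but not between probes. A difference is always tumour 1 minus tumour 2 on the log2 scale. The array of tumour 1 had 1128 outlier-flagged spots against 69 on that of tumour 2, so spots within 2 rows and columns of a flag were left out and 31316 of the non-control spots (72.2%) remained. Away from flags a repeat spot of the same probe had a standard deviation of 0.23 on the array of tumour 1 and 0.09 on that of tumour 2, over 169 probes printed several times and well above background, which gives a technical standard deviation of 0.24 for a difference of 1 spot. That figure is pooled over probes of all signal levels, and a single probe can vary more. The repeated H2-Ab1 probe described below had 0.64 in tumour 1 and 0.13 in tumour 2. The pooled figure covers the error within an array and not between arrays. Between arrays, 8 probes for RNA added to the samples in known amounts could be compared. Of these, 7 were higher on the array of tumour 2 and 1 was 1.09 higher on that of tumour 1, for a range of -0.99 to 1.09 and a median of -0.88. Most of these controls were thus offset towards the array of tumour 2. What this offset means for the differences of the genes was not tested.

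Class II transcripts were present in both tumours, and those of H2-Aa, H2-Eb1, the invariant chain and the measured chain of the peptide editor were higher in tumour 1. In RNA of a whole tumour, fewer cells of a type and less RNA per cell cannot be told apart. Of the 10 genes, 7 were measured in both tumours away from flags, 5 of them higher in tumour 1 and 2 higher in tumour 2. H2-Aa, H2-Eb1 and Cd74 reached 2-fold towards tumour 1, and H2-DMb1 came just below that limit. That is 3 of 7, or 42.9%, where 3.81% of the 13945 genes measured on both arrays reached 2-fold towards tumour 1. None of the 7 was at least 2-fold higher in tumour 2, as 2.62% of all genes were. The median difference of the 7 was 0.94, against 0.01 over all genes. Among the 7087 genes with a mean level in the same range as the measured members, tumour 1 was higher by 2-fold or more in 6.34% and tumour 2 in 3.63%. The central 95% of all genes lay between -1.025 and 1.16, so the largest class II difference, that of Cd74 at 1.15, was just inside the range of most genes on the arrays, and what stands out in these values is that 4 of the genes lie together near its upper end. These genes were chosen with that pattern known, and the counts describe it without testing it.

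**Figure D1:**
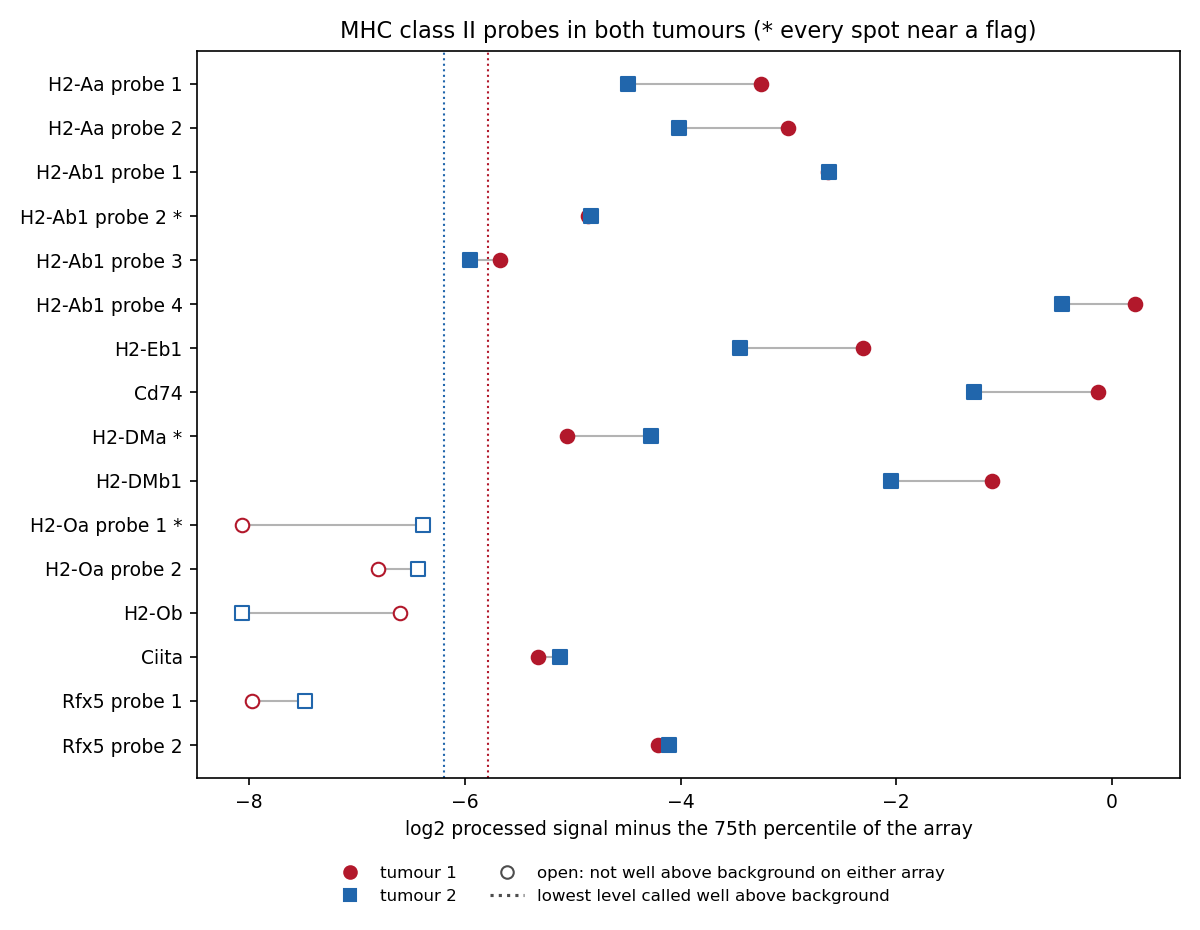
Levels of all 16 class II probes, as log2 processed signal minus the 75th percentile of the array, with circles for tumour 1 and squares for tumour 2; open symbols were not well above background on either array, a star marks probes with every spot near a flag, and dotted lines are the lowest levels called well above background (-5.79 in tumour 1 and -6.19 in tumour 2). Both probes of H2-Aa and the probes of H2-Eb1, Cd74 and H2-DMb1 lie clearly further right in tumour 1. The symbols of Ciita and of the Rfx5 probe well above background nearly coincide.

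H2-Aa encodes the alpha chain of I-A and was measured by 2 probes. The first had a processed signal of 105 in tumour 1 and 40.3 in tumour 2, or levels of -3.25 and -4.49, and the second 125 in tumour 1 and 55.7 in tumour 2, or -3.00 and -4.02. Both probes were thus higher in tumour 1, by 1.23 (2.35-fold) and 1.02 (2.02-fold). The difference of the gene, their median, was 1.13 (2.18-fold), or 4.64 of the pooled technical standard deviations of a spot. Among the genes measured on both arrays 385 (2.76%) differed at least as far towards tumour 1.

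H2-Eb1, the beta chain of I-E, had 1 probe with a signal of 202 in tumour 1 and 82.9 in tumour 2. In tumour 1 its level was -2.31 and in tumour 2 -3.44, with a mean of -2.88 ± 0.80 (SD, n = 2). The difference of 1.14 (2.20-fold) was close to that of H2-Aa, and 372 genes (2.67%) differed at least as far towards tumour 1. Its partner H2-Ea lay at -7.67 in tumour 1 and -7.99 in tumour 2, not well above background on either array. The beta chain of I-E was therefore detected in both tumours and its alpha chain in neither.

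H2-Ab1, the beta chain that pairs with H2-Aa, had 4 probes that did not give 1 answer. The brightest had a signal of 1160 in tumour 1 and 654 in tumour 2, levels of 0.21 and -0.46, and was 0.68 (1.60-fold) higher in tumour 1. A dim one had 19.6 in tumour 1 and 14.6 in tumour 2 and was 0.28 higher in tumour 1, but its levels exceeded the lowest called level by only 0.11 in tumour 1 and 0.24 in tumour 2. A further probe had its only spot near a flag, with 34.4 in tumour 1 and 31.7 in tumour 2, and was left out. The median over the measured probes was 0.28 (1.21-fold), and 25.7% of all genes differed at least as far towards tumour 1. By its brightest probe H2-Ab1 followed H2-Aa at about 1.60-fold, and by its median it lay among the bulk of genes.

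The remaining H2-Ab1 probe was printed 10 times, so the error of a spot can be read from it directly. Its 8 spots away from flags had signals of 54.3 to 203 in tumour 1 and 127 to 158 in tumour 2. Their mean levels were -2.64 ± 0.64 in tumour 1 and -2.62 ± 0.13 in tumour 2 (SD over 8 spots of 1 array each), so tumour 1 minus tumour 2 was -0.01. In 7 of the 8 spots, however, tumour 1 was higher. The exception, 3 spots away from the nearest flag on the array of tumour 1, had 54.3 in tumour 1 and 130 in tumour 2, or -1.41 on the log2 scale. Without it the signals were 179 to 203 in tumour 1 and 127 to 158 in tumour 2 and did not overlap, and the difference was 0.18 ± 0.12 (SD, 7 spots). The 2 spots near flags had 128 and 199 in tumour 1 and 145 and 148 in tumour 2. Even without the low spot this probe gave H2-Ab1 a smaller difference than either probe of H2-Aa. The difference of the gene stayed at 0.28 with the median of the repeat spots in place of their mean.

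**Figure D2:**
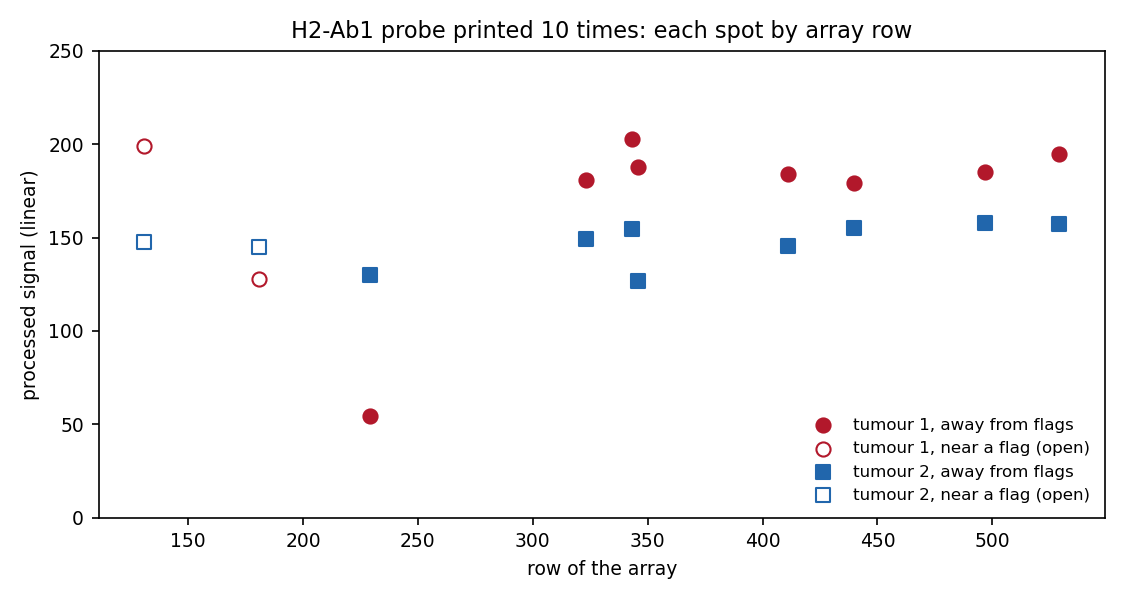
Processed signal (linear scale) of each of the 10 spots of the repeated H2-Ab1 probe against its row on the array, with circles for tumour 1, squares for tumour 2 and open symbols for spots near a flag. Away from flags 7 spots of tumour 1 sit between 179 and 203, above all 8 spots of tumour 2 at 127 to 158, and 1 spot of tumour 1 drops to 54.3.

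Cd74, the invariant chain, had a signal of 914 in tumour 1 and 372 in tumour 2. Its levels were -0.13 in tumour 1 and -1.28 in tumour 2, a mean of -0.70 ± 0.81 (SD, n = 2) far above the lowest called level in both. The difference of 1.15 (2.22-fold), from 1 spot, was 4.74 of the pooled technical standard deviations. Of all genes, 361 (2.59%) differed at least as far towards tumour 1.

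The peptide editor H2-DM gave a value for only 1 of its chains. The beta chain H2-DMb1 had 464 in tumour 1 and 217 in tumour 2, or levels of -1.11 and -2.05. It was 0.94 (1.93-fold) higher in tumour 1, and 623 genes (4.47%) differed at least as far towards tumour 1. The alpha chain H2-DMa had its only spot 2 spots away from a flag on the array of tumour 1. Its signals there, 30.1 in tumour 1 and 46.5 in tumour 2, passed as well above background in both and run the other way, but the spot was left out and the direction of H2-DMa is not known from these arrays. H2-DMb2, a near-identical copy of H2-DMb1 next to it in the genome, lay at -5.17 in tumour 1, where 1 of its probes was well above background, and at -5.91 in tumour 2, where none was. Transcripts of such copies can bind each other's probes, so the value of H2-DMb1 may hold some of H2-DMb2.

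H2-O, which holds H2-DM back and is made chiefly in B cells and some dendritic cells, was not measurable. The H2-Oa probe away from flags had signals of 8.95 in tumour 1 and 10.4 in tumour 2, and its other probe, near a flag, 3.73 in tumour 1 and 10.7 in tumour 2. H2-Ob had 10.3 in tumour 1 and 3.38 in tumour 2. None of these was well above background, so no fold change is given. H2-Eb2, a little-expressed relative of H2-Eb1, was not well above background by either probe in either tumour.

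The regulators of the pathway did not follow the chains. Ciita had a signal of 25.0 in tumour 1 and 25.9 in tumour 2, or levels of -5.32 and -5.12, and differed by -0.20 (1.15-fold higher in tumour 2). Those signals exceeded the lowest called level by 0.47 in tumour 1 and 1.07 in tumour 2, so the call was a weak one, and the difference was 0.83 of a technical standard deviation. Rfx5, the DNA-binding subunit of the RFX complex, had 54.0 in tumour 1 and 52.4 in tumour 2, levels of -4.21 and -4.10, and differed by -0.11 (1.08-fold higher in tumour 2), while its other probe at 3.99 in tumour 1 and 5.04 in tumour 2 was not well above background. At 1 spot each, both differences were smaller than the technical error of a spot. Neither probe showed a difference of the size seen in Cd74, and a much smaller one was not detectable with 1 spot.

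The other proteins of the class II promoter complex were measured in full, 6 of 6 on the array, with 3 higher in tumour 1 and 3 in tumour 2. None was at least 2-fold apart, and their median difference was -0.06. Of the RFX subunits, Rfxank differed by -0.28 and Rfxap by 0.13 (probes at -0.51 and 0.78). Among the NF-Y subunits, Nfya differed by -0.12 (probes at -0.63 and 0.39), Nfyb by 0.01 and Nfyc by -0.82. Creb1, which binds beside the RFX complex, was 0.44 higher in tumour 1. Nlrc5, the related coactivator of class I genes, was not found on the array under the names searched.

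Interferon gamma itself, the inducer of Ciita, was not well above background in either tumour. Of the 13 genes listed for its pathway 8 were measured, 7 of them higher in tumour 1 and 1 higher in tumour 2, with none at least 2-fold apart and a median difference of 0.31, against 0.01 over all genes. The receptor chains Ifngr1 and Ifngr2 differed by 0.21 and 0.03. The receptor kinase Jak2 was 0.38 higher in tumour 1. Irf1, the interferon-induced factor that acts on the Ciita gene, was 0.76 higher in tumour 1, with levels of 2.72 in tumour 1 and 1.96 in tumour 2. The guanylate-binding protein Gbp2 differed by 0.76 and the chemokine Cxcl10 by 0.23. Cxcl9, which depends strongly on interferon gamma, was well above background in tumour 1 only, at -5.64 in tumour 1 and -6.95 in tumour 2. That call was a weak one, by 1 probe close to the lowest called level in tumour 1 (-5.79). Irf8, a factor of myeloid cells and B cells, went the other way at -0.66. Jak1, Irf2 and Socs1 had no spot away from flags.

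Of 8 genes listed for the processing of antigen and the invariant chain in the endosome, 5 were measured. Of these, 1 was higher in tumour 1 and 4 in tumour 2, none at least 2-fold apart, with a median of -0.14. Cathepsin S (Ctss), which makes the last cut in the invariant chain in professional presenting cells, lay at 3.36 in tumour 1 and 2.69 in tumour 2 and was 0.67 higher in tumour 1. The broadly expressed cathepsins Ctsl (-0.14), Ctsb (-0.05), Ctsd (-0.23) and Ctsz (-0.48) were slightly higher in tumour 2. Ifi30, the thiol reductase of the pathway, had no spot away from flags, and neither had Lgmn and Cst3 of the same list. With all unflagged spots Ifi30 differed by -1.27, Lgmn by 0.27 and Cst3 by 0.61, where the median of all genes was 0.40. The ubiquitin ligase Marchf1, which removes class II from the surface of dendritic cells and B cells, was 0.88 higher in tumour 1, and its relative Marchf8 0.26.

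On the side of the T cell contact, 5 of 7 costimulatory ligands were measured, with 2 higher in tumour 1, 3 higher in tumour 2 and a median of 0.00 to 2 decimals. Cd40 (0.86) and Cd86 (0.68) were higher in tumour 1, and Cd80 (-0.35), Icosl (-0.08) and Cd274 (-0.00) were at or below 0. Cd4, the coreceptor that binds class II, was not well above background in either tumour, and neither were Lag3, a further class II ligand, or Foxp3. Only 2 of the 9 listed helper T cell genes were measured, Cd3e at -0.25 and Icos, an inducible costimulator, at 1.20 (2.30-fold), from levels of -4.11 in tumour 1 and -5.31 in tumour 2.

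**Figure D3:**
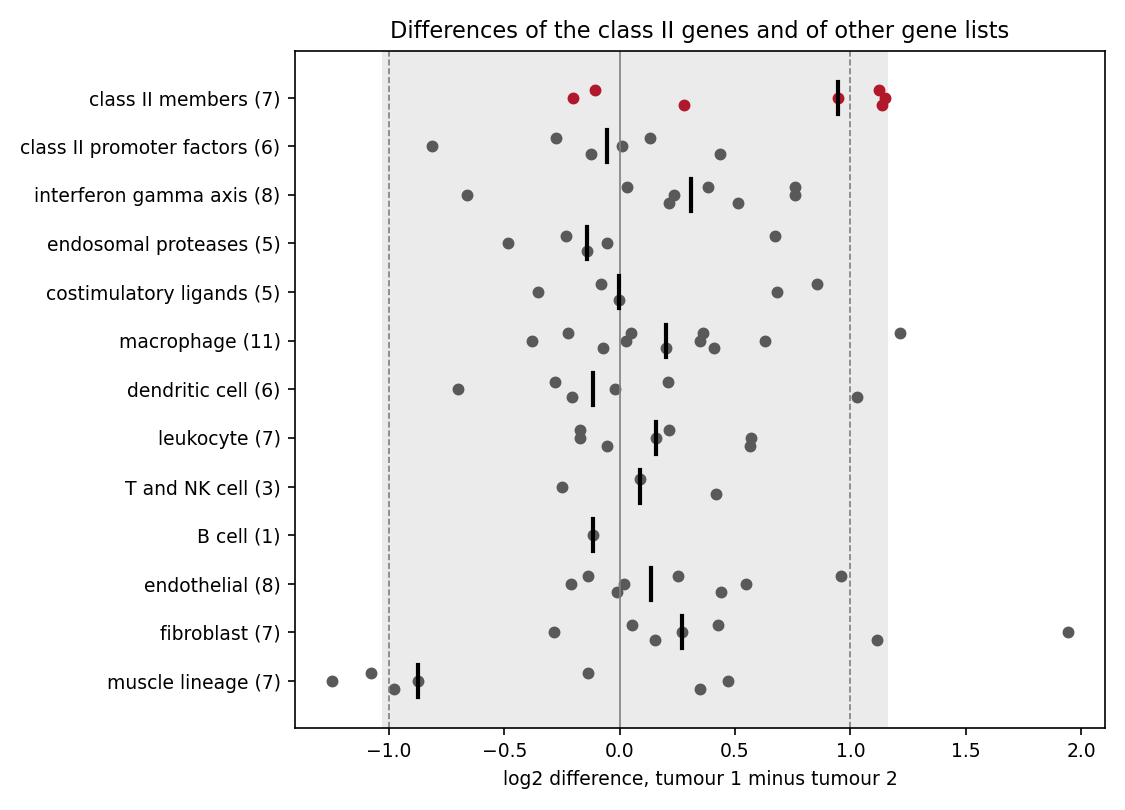
Log2 difference, tumour 1 minus tumour 2, of every measured gene of the class II set (top row) and of related gene lists, with the number measured in brackets; bars are medians, dashed lines mark 2-fold and the grey band holds the central 95% of all genes (-1.025 to 1.16). The class II median is 0.94 and the medians of the other lists drawn lie between -0.87 and 0.31, while turnover (0.57), helper T cell (0.48) and keratinocyte (-3.60) genes, with 2 measured each, are not drawn.

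The RNA of a tumour also holds transcripts of its line and of host cells. Of 8 muscle lineage genes 7 were measured, 2 of them higher in tumour 1 and 5 in tumour 2, with a median of -0.87, among them the intermediate filament gene Des at -1.25, the embryonic myosin Myh3 at -1.08, and the myogenic factors Myog at -0.14 and Myod1 at 0.35. The part of these differences in the class II values was not tested.

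Macrophage markers were measured in 11 of 14 cases, 8 higher in tumour 1 and 3 in tumour 2, with a median of 0.20. Their summed level, as log2 of the sum, was 4.12 in tumour 1 and 3.97 in tumour 2, with single markers from -3.33 to 2.27 in tumour 1 and from -4.55 to 2.24 in tumour 2. Such a sum is set mainly by the brightest probes of a list. The scavenger receptor Marco was at least 2-fold higher in tumour 1 (1.22, 2.32-fold), Adgre1, the F4/80 antigen, was 0.63 higher, and Cd68 (-0.22) and C1qa (0.05) lay near 0. The 7 genes listed as leukocyte markers, not all of them carried by every leukocyte, were all measured. Of these, 4 were higher in tumour 1 and 3 in tumour 2, with a median of 0.16. Their summed level was 3.73 in tumour 1 and 3.49 in tumour 2. The brightest was Tyrobp, at 2.14 in tumour 1 and 1.57 in tumour 2. Ptprc, which encodes CD45, differed by 0.22 and Cd53 by 0.16. The part of both lists in the class II values was not tested.

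Dendritic cell markers were measured in 6 of 13 cases, 2 higher in tumour 1 and 4 in tumour 2, with a median of -0.11 and a summed level of 1.57 in tumour 1 and 1.87 in tumour 2. The sum came mostly from Ly75 (0.64 in tumour 1 and 0.92 in tumour 2) and Fscn1 (-0.23 in tumour 1 and 0.47 in tumour 2). It is therefore not a measure of dendritic cell content. Flt3 and Zbtb46 had no spot away from flags and do not enter it. Single markers ran from -5.31 to 0.64 in tumour 1 and from -5.10 to 0.92 in tumour 2. Itgax, the CD11c chain of dendritic cells and some macrophages, was higher in tumour 1 by 1.03 (2.04-fold), from -1.62 in tumour 1 and -2.65 in tumour 2. Ccr7, which guides dendritic cells to lymph nodes, differed by 0.21. Xcr1 of cross-presenting dendritic cells differed by -0.21, and Clec9a, Cd209a, Siglech and Cd207 were not well above background in either tumour. Of 9 B cell markers only Cd79b was measured, at -4.97 in tumour 1 and -4.85 in tumour 2, and Cd79a and Pax5 were not well above background in either. Of 11 T and NK cell markers 3 were measured, with a median of 0.09, among them Lck at 0.42, and Cd8a was not well above background in either tumour.

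Other host tissue varied as well. Fibroblast markers were measured in 7 of 7 cases, 6 higher in tumour 1 and 1 in tumour 2, with a median of 0.27, and Mfap5 (1.94, 3.85-fold) and Dcn (1.11, 2.16-fold) reached 2-fold towards tumour 1, while Lum differed by 0.43. Their summed level was 6.60 in tumour 1 and 6.50 in tumour 2, mostly from Col1a2 at 6.35 in tumour 1 and 6.29 in tumour 2. Endothelial markers were measured in 8 of 8 cases, 5 higher in tumour 1 and 3 in tumour 2, with a median of 0.13, a summed level of 3.39 in tumour 1 and 3.20 in tumour 2, Pecam1 at 0.02 and Cdh5 at 0.25. Of 5 keratinocyte markers 2 were measured, Krt5 at -3.55 and Krt14 at -3.65, both far higher in tumour 2. Krt1 was well above background in tumour 1 only, at -4.63 in tumour 1 and -8.49 in tumour 2, so the keratinocyte markers did not all run one way. The part of these lists in the class II values was not tested.

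Around the member spots away from flags, the median difference of neighbouring detected spots ran from -0.32 to 0.10. Around the spots of both H2-Aa probes, H2-Eb1, Cd74 and H2-DMb1 the median difference of other detected spots within 5 rows and columns was between -0.09 and 0.10. Around the H2-DMa spot, left out for its nearness to a flag, that median was -0.08, and with it taken off the spot differed by -0.70. Under local scaling, an alternative setting, the genes differed by 1.13, 1.18, 1.06 and 0.84, in the order H2-Aa, H2-Eb1, Cd74 and H2-DMb1. Leaving out every spot within 5 rows and columns of a flag, an alternative chosen after seeing the data, gave 1.11, 1.12, 1.13 and 0.93 in the same order.

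The size of the difference did depend on how the background was corrected and on which spots set the scale. With all unflagged spots kept, H2-Aa, H2-Eb1, Cd74 and H2-DMb1 differed by 1.55, 1.56, 1.57 and 1.37, but then the median over all genes stood at 0.40, tumour 1 was higher by 2-fold or more in 11.2% of genes and tumour 2 in 4.08%, and Ciita (0.23) and Rfx5 (0.32) changed sign. Over the same 7 genes the median was then 1.37, or 0.97 less that shift. With H2-DMa, which this setting adds at -0.35, the median of the 8 genes was 0.96, or 0.56 less the shift. With normexp, a model-based background correction, fitted without 11 spots of very high background on the array of tumour 2, only Cd74 (1.10) was at least 2-fold higher in tumour 1, and H2-DMb1 differed by 0.81, H2-Eb1 by 0.77, H2-Aa by 0.56 and H2-Ab1 by 0.01. When these 11 spots stayed in the fit, the correction turned H2-Aa to -1.95, H2-Eb1 to -1.62 and H2-DMb1 to -0.43, with Cd74 at 0.21, while the median of all genes stood at -0.69. H2-Ab1 then lay at -1.68, Ciita at -2.93 and Rfx5 at -2.66. Under that last setting the median of the 7 genes, -1.68, lay further towards tumour 2 than that of all genes.

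**Figure D4:**
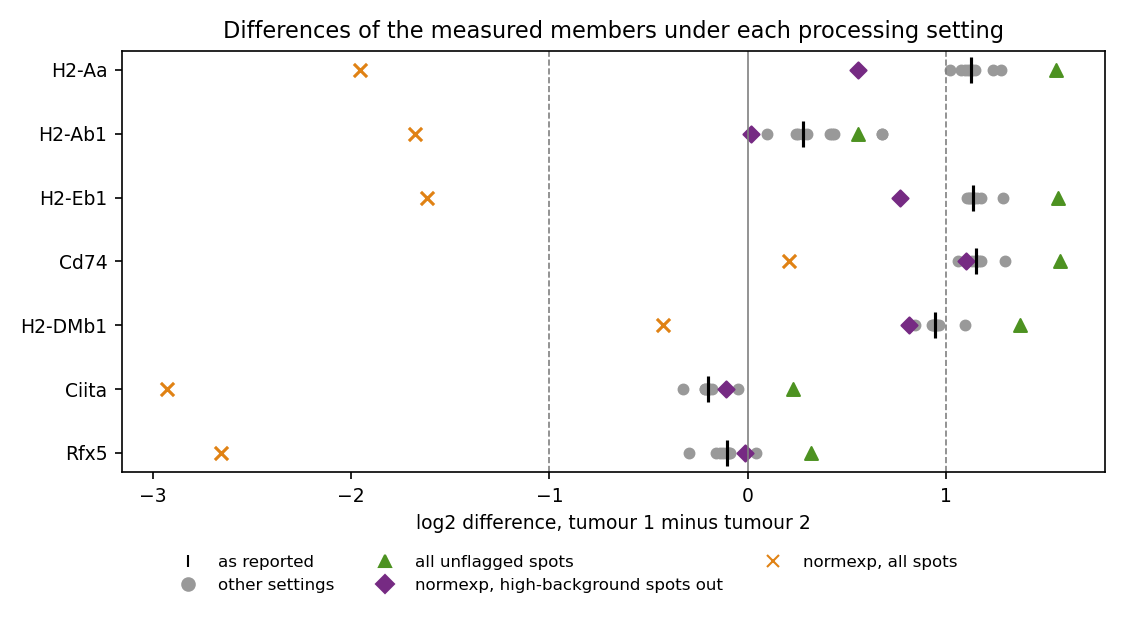
Log2 difference, tumour 1 minus tumour 2, of the 7 measured class II genes as reported (black bar) and under each alternative (symbols named in the legend), with dashed lines at 2-fold. Cd74 stays above 0 in every setting, from 0.21 to 1.57, and the crosses of normexp with all spots in its fit put every gene but Cd74 on the side of tumour 2.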

How the data were processed

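Each tumour had 1 single-colour (Cy3) array, both on a shared slide and scan. Trizol extracts were labelled from 1.0 µg of total RNA with the Quick Amp kit, per the labels' protocols. The deposited intensity values came from Agilent Feature Extraction, which is version 9.1.3.1 in the headers but version 8 in the submitters' processing notes. The deposited value table equals the processed signal intensity at every spot, linear, uncentred and unscaled, with column medians of 63.3 in tumour 1 and 67.5 in tumour 2. The genome build is not given in the sources used here. The share of non-control spots well above background was 62.3% in tumour 1 and 66.1% in tumour 2. Having only 2 arrays limits the precision.

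The 10 genes and all lists were chosen with earlier results of these data known. Named are all members with their relatives and regulators, and from other lists the first 2 measured, those at least 2-fold apart and defining markers at background; Irf1 and a few further list members were added after their values were seen. Some list members are not reported here. Outlier-flagged spots, and spots within 2 rows and columns of an array 1 flag or of an array 2 background above 100, were left out. Repeat spots were averaged. A probe counted as measured where at least 50% of its spots were well above background on both arrays, and a gene took the median over its probes. Of 3440 genes with several measured probes, 338 (9.83%) had probes at least 2-fold apart. Alternatives were all unflagged spots, rows below the flagged area only, normexp (offset 50), quantile, loess (span 0.3), local, detected-median and no scaling, other filters, the brightest probe and, added after seeing the data, a wider margin of 5 and the median of repeat spots. Names came from the file of tumour 2, as 47 differ in the other, and 22951 probes matched RefSeq. Software was Python 3.11.15, R 4.3.3 and limma 3.58.1, and all steps were first tested on simulated data.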

Additional observations from a re-analysis of the deposited data

How the results depend on the processing

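No paired analysis was possible because the data form 1 group of 2 tumours. Of 15 alternatives, 12 left 3 or 4 genes at least 2-fold higher in tumour 1, 0 in tumour 2 and a median difference between 0.84 and 1.09, with 7 to 9 genes measured. Normexp with all spots in its fit gave 0 genes at least 2-fold higher in tumour 1, 5 in tumour 2 and a median of -1.68, with H2-Aa at -1.95 and H2-Eb1 at -1.62; its fit on array 2 depended on 11 spots of high background, as the refit without them gave 1 gene at least 2-fold higher in tumour 1, 0 in tumour 2 and a median of 0.56. Keeping the brighter 50% of probes left 2 genes, 1 of them at least 2-fold higher in tumour 1, by its construction. Leaving out either tumour left 7 genes above background, and a difference then has no value. The share of all genes higher in tumour 1 was 50.8%, and 80.0% with all unflagged spots (median shift 0.40), 65.9% unscaled (0.16), 60.4% without a filter (0.15) and 35.7% with normexp on all spots (-0.69). Signal over background limits Ciita, H2-Oa and H2-Ob, and flags limit H2-DMa.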

Other observations

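On the array 2 further probes outside the 10 gene names carry a class II description. The transcript AK005018 lay at -5.85 in tumour 1 and -6.43 in tumour 2 and was not well above background in either. The clone 9530028C05 passed as well above background on both arrays, with its only spot near a flag, and with all unflagged spots it was 0.69 higher in tumour 1, where the median of all genes was 0.40 higher.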
